A study of Mus musculus with 18 samples.

Results

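The empty manganese framework was compared with PBS in 6 of the 18 tumors sequenced, 3 that had been injected with NKMOF-101-[Mn] and 3 that had been injected with PBS. The tumors of each group were taken by their labels, while the comparison itself was chosen with earlier results of these data known. Of the 41079 genes with a deposited value, 12357 averaged 1 FPKM or more across the 18 tumors and were tested. FPKM is the number of sequenced fragments of a gene scaled to the length of the gene and to the fragments assigned in that tumor, so it can be compared between tumors and, since it is per length, between genes.

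All tumors grew from B16F10 cells, a pigmented mouse melanoma line, implanted under the skin of the right flank in C57BL/6 females. Injections into the tumor began on day 6, at a volume of about 50 mm3, and were repeated every 2 days, and the tumors were removed 48 hours after the last injection. NKMOF-101-[Mn] is a metal-organic framework built from manganese ions and squaric acid, a carrier for the PD-L1-cleaving ribozyme PS473. In the group described here the carrier held no ribozyme, so these tumors received framework and manganese alone. The PBS tumors received the buffer with no particle and no added metal, so an effect of manganese and an effect of an injected solid cannot be told apart. The other groups were Free PS473, PS473 on cationic polymers (PS473@CPs), the framework with the inactive mutant ribozyme (M5@NKMOF-101-[Mn]) and the framework with PS473 (PS473@NKMOF-101-[Mn]). Mouse ages are not given in the sources used here, nor is it stated whether each library came from a single mouse.

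Manganese is a cofactor of enzymes such as the mitochondrial superoxide dismutase, and cells take it up and expel it through carriers shared with zinc and iron. It is also known to increase the sensitivity of the DNA sensor cGAS and of the adaptor STING, which signal through the kinase TBK1 and the factor IRF3 to type I interferons and to interferon-stimulated genes. Injected particles are typically taken up by macrophages, which carry scavenger and Fc receptors, secrete the complement component C1q and release chemokines.

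No gene differed between the NKMOF-101-[Mn] and PBS tumors after adjustment. With limma and Benjamini-Hochberg adjustment over all 12357 genes, 0 genes were higher and 0 lower at an adjusted p below 0.05 and a fold change above 2, which is 0% of the genes in either direction, and the smallest adjusted p was 1. At an unadjusted limma p below 0.05 there were 181 genes (1.46% of those tested), of which 142 (1.15%) had a higher mean with the framework and 39 (0.316%) a lower mean. If no gene differed, a share of about 0.05 would be reached on average at that threshold, so these counts are no excess. More than 2-fold differences at that p were seen for 6 genes in each direction (0.0486% each). The 3 framework tumors lay entirely above the 3 PBS tumors for 558 genes (4.52%) and entirely below them for 186 (1.51%), together 744 (6.02%). The counts at the unadjusted p rested on single tumors, with 69 higher genes without framework tumor 1, 89 without PBS tumor 1 and 304 without PBS tumor 3, and with 153, 75 and 108 lower genes without PBS tumors 1, 2 and 3.

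The fit also bounds the size of the differences. The median standard error of a log2 fold change was 0.15, and for 11139 genes (90.1%) the whole 95% interval lay between -1 and 1. A change of more than 2-fold in FPKM + 1, the scale of the fit, was outside it in either direction. For weak genes a 2-fold change in FPKM itself is smaller than that on this scale, so the interval does not bound it in the same way. The median log2 fold change was 0.03, and 58.8% of the genes had a higher mean with the framework. That share was 53.6% after upper-quartile scaling and 55.7% after quantile normalization, so the excess of higher means depended in part on the scaling.

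**Figure D1:**
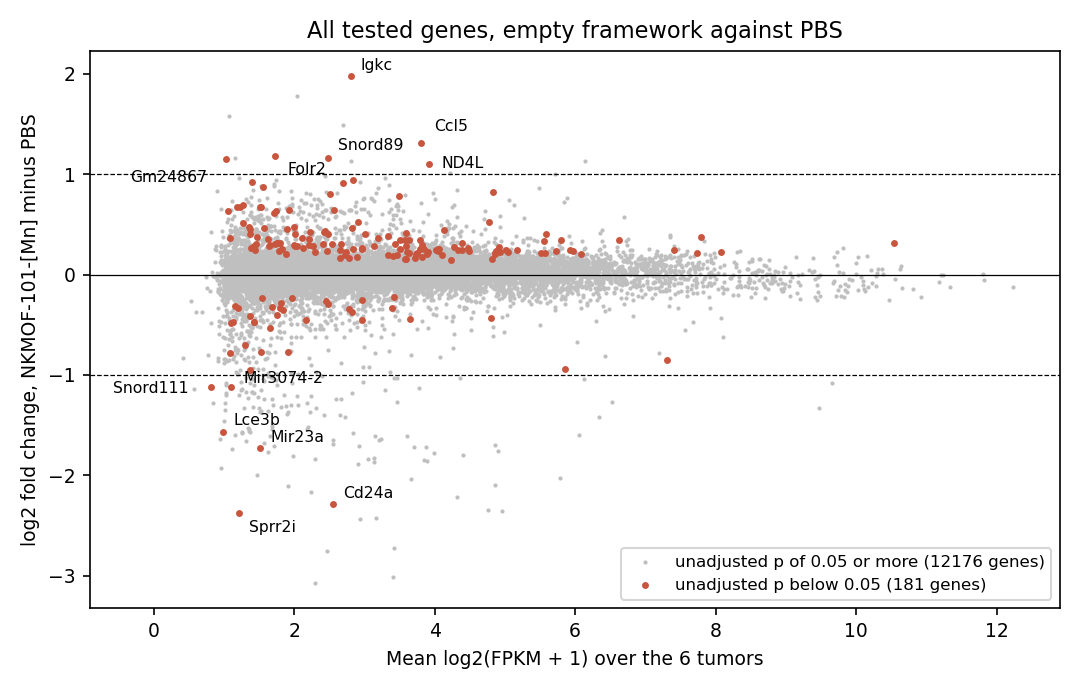
Each point is 1 of the 12357 tested genes, with the mean log2(FPKM + 1) of the 6 tumors on the horizontal axis and the log2 fold change, NKMOF-101-[Mn] minus PBS, on the vertical axis. Red points have an unadjusted limma p below 0.05 (181 genes), the dashed lines mark 2-fold differences, and the 12 genes past both are named; most points lie between the dashed lines.

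The tumors and libraries themselves set limits on these comparisons. About 17770000 to 22230000 fragments were assigned to genes in the framework tumors and 19504000 to 20023000 in the PBS tumors, as estimated from the steps between low FPKM values. All 25 melanocyte genes were measured, with Pmel at 1109 to 1471 FPKM in the framework tumors and 1084 to 1360 FPKM in the PBS tumors. The correlation of log2(FPKM + 1) over the tested genes, which are not independent replicates, was 0.959 to 0.980 among the framework tumors and 0.904 to 0.974 among the PBS tumors. Markers of skin epithelium, of red blood cells and of neutrophils differed widely within both groups, and their values stand beside the results they touch.

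Lists of genes were written for 40 pathways and cell types, and their tested members are described by counts and medians beside the same figures for all genes. The lists and their members were chosen with earlier results of these data known, and some genes are on more than 1 list. For every list below, a share above that of all genes is therefore a description and not a test of enrichment. Of the 39 lists with a tested gene, 30 had a median log2 fold change above 0 and 9 below 0. On them, 689 genes were tested, of which 15 (2.18%) had a higher and 3 (0.435%) a lower mean at an unadjusted limma p below 0.05, beside 1.15% and 0.316% of all genes. Of the same genes 48 (6.97%) lay entirely above and 2 (0.29%) entirely below the PBS tumors, beside 4.52% and 1.51% of all genes. In tumor tissue, fewer cells of a type and less RNA per cell cannot be told apart.

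**Figure D2:**
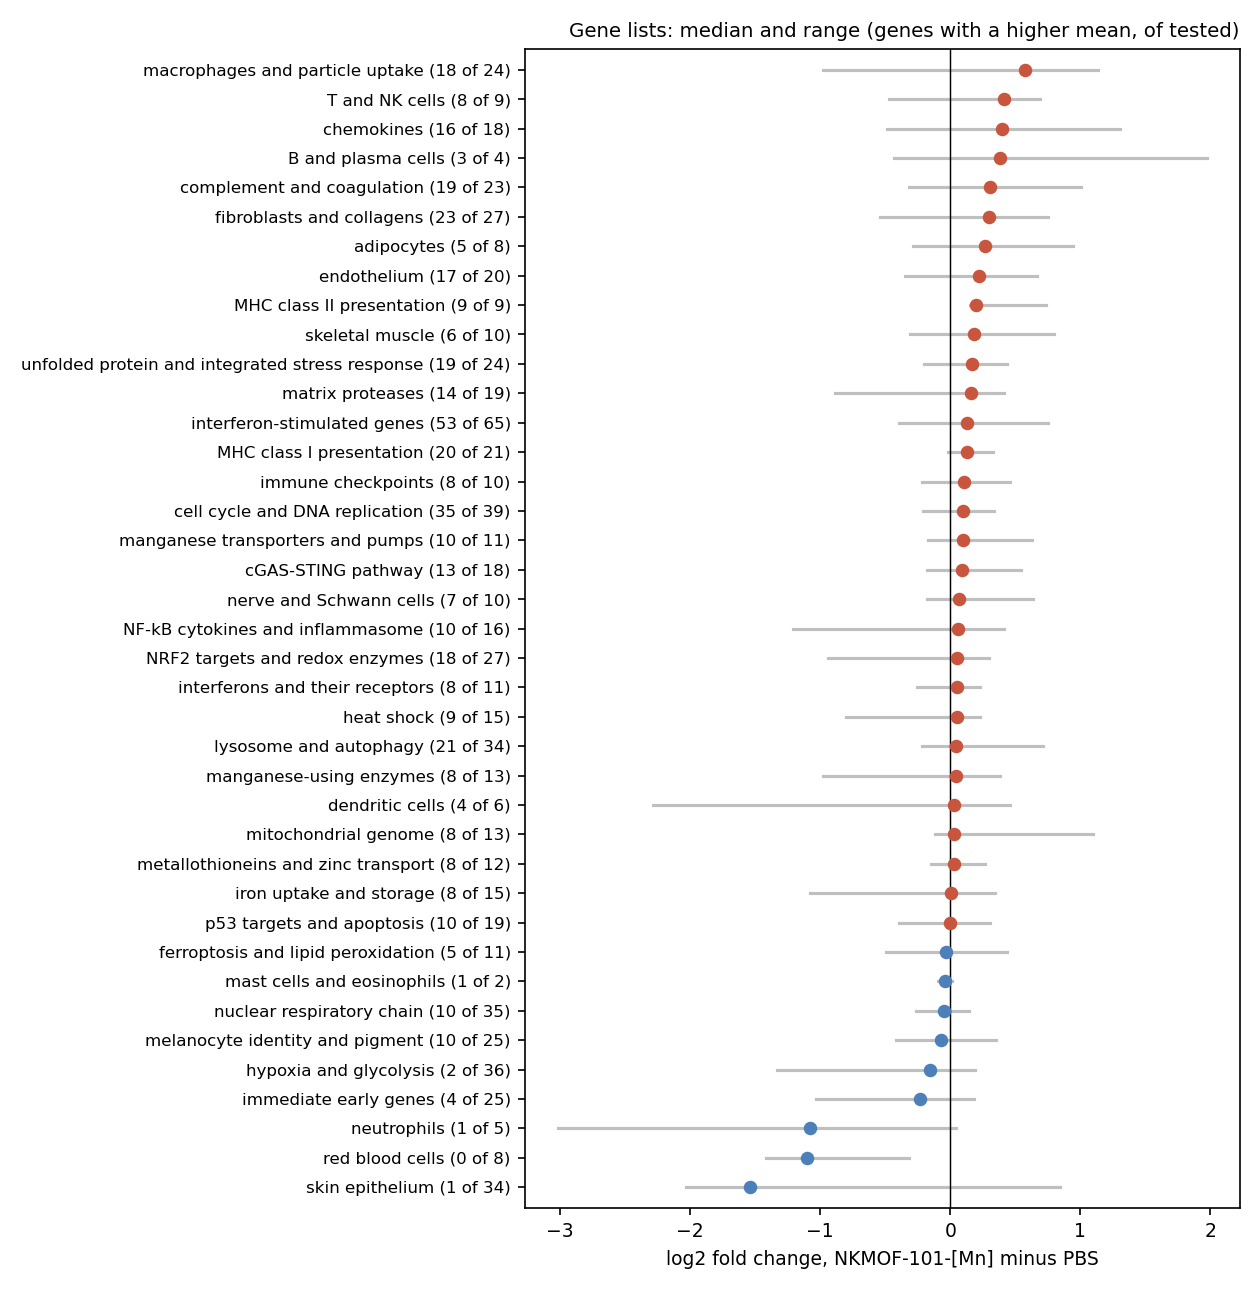
Each row is a gene list, the point is the median log2 fold change, NKMOF-101-[Mn] minus PBS, of its tested genes (red above 0, blue below 0), and the grey line runs from the lowest to the highest gene. The numbers beside each name give how many tested genes had a higher mean with the framework, from 18 of 24 for macrophages at the top (median 0.58) to 1 of 34 for skin epithelium at the bottom (median -1.54).

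The macrophage genes had the highest median of the lists. Of 24 tested genes, 18 had a higher mean in the framework tumors, and the median log2 fold change was 0.58 (median over all genes 0.03). Without overlap above PBS were 9 of the 24 (37.5%, against 4.52% of all genes), and none lay entirely below (1.51% of all genes). Only Cd68 and Adgre1 were at an unadjusted limma p below 0.05, and none passed adjustment. Cd68, a lysosomal glycoprotein of macrophages, was at 43.5, 28.8 and 40.1 FPKM in the framework tumors and at 19.9, 24.7 and 17.7 FPKM in the PBS tumors. Every framework tumor was above every PBS tumor, with a log2 fold change of 0.82 (SE 0.34, limma unadjusted p = 0.0312, Benjamini-Hochberg adjusted p = 1). Adgre1, which encodes the macrophage surface protein F4/80, was at 13.7, 6.05 and 8.42 FPKM against 2.42, 6.48 and 4.37 FPKM. The groups overlapped there, since the second framework tumor lay below the second PBS tumor, and the log2 fold change was 0.94 (SE 0.43, limma unadjusted p = 0.0441).

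The genes of the C1q complex, which macrophages secrete and which starts the classical complement pathway, also had a higher mean with the framework. C1qa was at 92.4, 58.8 and 73.0 FPKM with the framework and at 24.2, 43.7 and 44.4 FPKM with PBS. The groups did not overlap, and the log2 fold change was 1.00 with a 95% interval of -0.04 to 2.05 (limma unadjusted p = 0.0574). C1qb and C1qc also did not overlap, with log2 fold changes of 0.76 and 0.86. Within the framework group the first tumor was the highest and the second the lowest for all 3 genes, and the first PBS tumor was the lowest of the 6.

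Folr2, a folate receptor of macrophages that is not on the list, was at 9.31, 2.35 and 2.64 FPKM in the framework tumors and at 1.68, 0.916 and 1.08 FPKM in the PBS tumors. The groups did not overlap, but the first framework tumor stood far above the other 5, and its value lay above the highest of the 12 tumors of the other groups, 4.45 FPKM. The log2 fold change was 1.18 (SE 0.42, limma unadjusted p = 0.0137), and it was 0.66 without the first framework tumor. Lyz2, the lysozyme of myeloid cells, was at 188, 90.9 and 64.2 FPKM against 43.0, 46.6 and 50.9 FPKM. These groups did not overlap either, and the log2 fold change was 1.13 (SE 0.60, limma unadjusted p = 0.0802), or 0.70 without the first framework tumor. Mrc1, the mannose receptor, was at 21.4, 5.34 and 6.91 FPKM against 1.08, 7.47 and 5.05 FPKM, which overlapped.

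Not all genes of the list had a higher mean with the framework. Arg1, the arginase of myeloid cells, was at 6.82, 2.20 and 14.6 FPKM with the framework and at 11.9, 52.6 and 3.30 FPKM with PBS, a log2 fold change of -0.98 (SE 1.06). Spp1, Ctsk, Acp5 and Apoe had log2 fold changes between -0.16 and -0.03. Gpnmb, which melanoma cells also express, was without overlap at 864, 930 and 967 FPKM against 801, 761 and 796 FPKM. Summed over the list, the framework tumors held 1797, 1558 and 1610 FPKM and the PBS tumors 1272, 1324 and 1315 FPKM. Averaged per gene on the log2 scale, which gives weak genes equal weight, the groups overlapped, at 3.84, 3.13 and 3.44 with the framework and 2.84, 3.36 and 2.94 with PBS. The first framework tumor, the highest of the 3 for 17 of the 24 genes, was also the highest of the 6 for fibroblast and collagen genes (4.32, with PBS at 2.03 to 4.13). The median log2 fold change of those genes was 0.30, and -0.13 without that tumor.

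Of the lysosome and autophagy genes, 21 of 34 had a higher mean, with a median log2 fold change of 0.05. Psap, the precursor of the saposins that aid lipid breakdown, was at 278, 240 and 238 FPKM against 175, 207 and 202 FPKM, without overlap, with a log2 fold change of 0.37 (limma unadjusted p = 0.0249). Ctsz, a cathepsin, was also without overlap, with a log2 fold change of 0.23 (limma unadjusted p = 0.0310), and Gusb, the lysosomal glucuronidase, had 0.27 (limma unadjusted p = 0.0259). These 3 were the list's only genes at that level (1.15% of all genes were higher there).

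Complement and coagulation genes included the receptors and regulators beside C1q, and 19 of 23 had a higher mean (median log2 fold change 0.30), and 5 (21.7%) did not overlap (4.52% of all genes), 3 of them the C1q genes that are also on the macrophage list. The median was 0.15 with no expression filter, 0.10 without framework tumor 1, 0.12 without PBS tumor 1 and 0.53 without PBS tumor 2. C5ar1, the receptor for the complement fragment C5a, was at 2.23, 1.31 and 2.43 FPKM with the framework and at 0.706, 0.970 and 0.893 FPKM with PBS. Cfp, properdin, which stabilizes the alternative pathway, was at 18.7, 11.0 and 12.8 FPKM against 7.62, 7.16 and 8.07 FPKM. Both were without overlap, with log2 fold changes of 0.67 (limma unadjusted p = 0.0263) and 0.79 (limma unadjusted p = 0.0232). C3, the central component, overlapped at 6.21, 2.96 and 0.687 FPKM against 0.269, 1.77 and 4.01 FPKM.

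The chemokines, secreted attractants of leukocytes, had a higher mean for 16 of 18 tested genes, with a median log2 fold change of 0.40, and 6 (33.3%) did not overlap (4.52% of all genes). Ccl5, which attracts T cells and monocytes, was at 26.7, 20.2 and 17.5 FPKM with the framework and at 4.69, 8.51 and 12.2 FPKM with PBS. Every framework tumor was above every PBS tumor, with means of 21.4 ± 4.75 and 8.46 ± 3.75 FPKM (SD, n = 3 each). The log2 fold change was 1.31 (SE 0.54, 95% interval 0.15 to 2.46, limma unadjusted p = 0.0294, Benjamini-Hochberg adjusted p = 1).

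Ccl8, a monocyte attractant, was at 55.3, 16.0 and 18.5 FPKM against 10.2, 12.0 and 14.6 FPKM, without overlap but with the first framework tumor far above the rest, and had a log2 fold change of 1.01 (SE 0.88), or 0.47 without that tumor. Ccl7 and Ccl12, of the same family of monocyte attractants, were without overlap at log2 fold changes of 0.89 and 0.90. The neutrophil attractants stood apart from these, with Cxcl1 at -0.12, Cxcl2 at 0.04 and Cxcl3 at -0.48, and with the highest PBS value in the second PBS tumor for each. For Ccl5 the other 12 tumors ran from 3.44 to 36.1 FPKM, so the framework values lay within the range of the series.

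**Figure D3:**
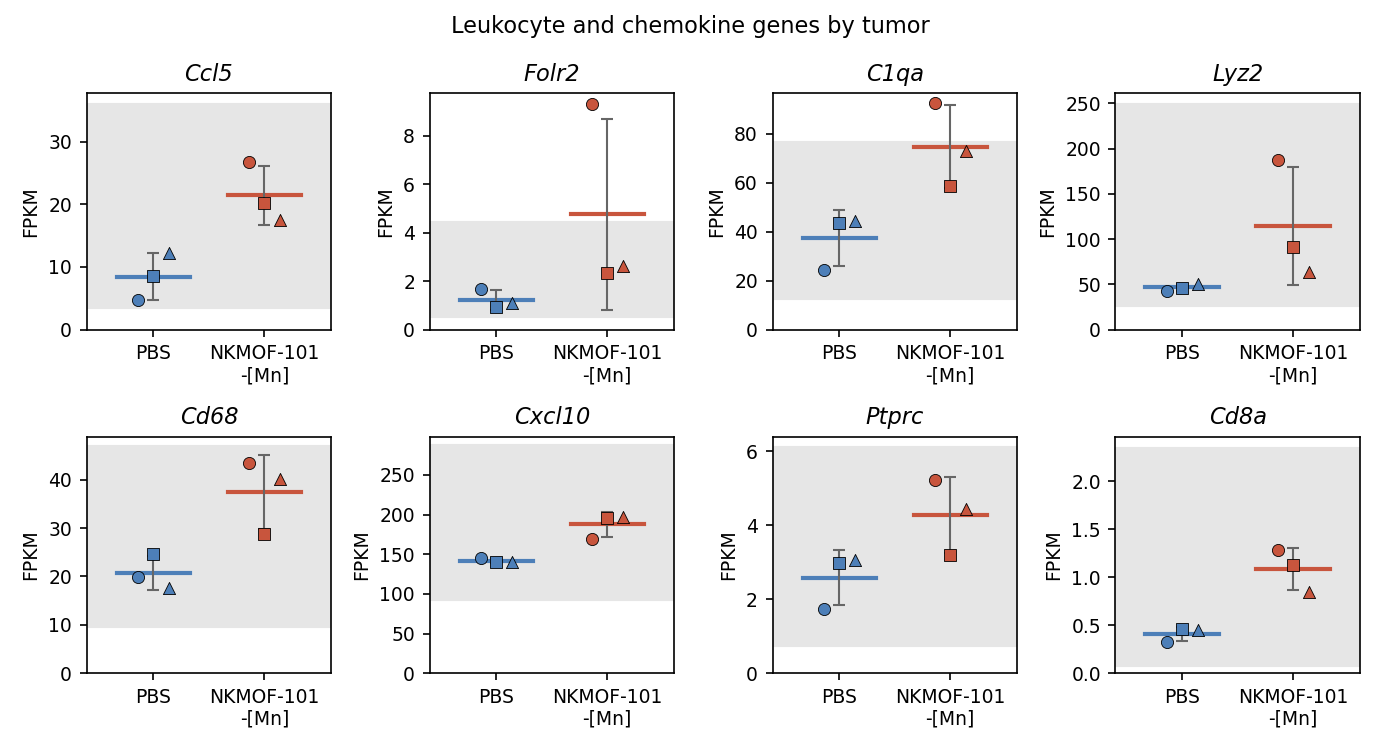
FPKM of 8 leukocyte and chemokine genes in the PBS tumors (blue) and the NKMOF-101-[Mn] tumors (red), where circle, square and triangle are replicates 1, 2 and 3, horizontal lines are means and error bars the SD (n = 3). The grey band spans the 12 tumors of the other groups; the genes were chosen among those without overlap, so the red points lie above the blue points in each panel, and most lie inside the band.

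Lymphocyte genes were weakly expressed. Of 31 T and NK cell genes 9 reached the expression limit, and 8 of these had a higher mean with the framework (median log2 fold change 0.41). The median over the list was 0.17 with no expression filter and 0.21 with a filter at 0.1 FPKM. Ptprc, the leukocyte antigen CD45, was at 5.23, 3.19 and 4.43 FPKM against 1.73, 2.97 and 3.06 FPKM, without overlap, with a log2 fold change of 0.56 (SE 0.41, limma unadjusted p = 0.192). Cd8a, the coreceptor of cytotoxic T cells, was below the expression limit and was not tested, at 1.29, 1.13 and 0.845 FPKM with the framework and at 0.327, 0.459 and 0.448 FPKM with PBS. Its groups did not overlap, while those of Cd3e, a subunit of the T cell receptor complex, did, at 0.792, 0.511 and 0.124 FPKM against 0.159, 0.164 and 0.417 FPKM. Nkg7, a granule protein of cytotoxic cells, was at 2.02, 2.74 and 2.35 FPKM against 1.26, 1.17 and 1.35 FPKM, without overlap.

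Igkc, the constant region of the immunoglobulin kappa chain, had the highest log2 fold change of the 12 genes past 2-fold, 1.98 (SE 0.79, limma unadjusted p = 0.0247). It was at 3.56, 10.3 and 50.3 FPKM against 6.79, 1.80 and 0.995 FPKM. The groups overlapped, and most of the difference came from the third framework tumor, without which the log2 fold change was 1.03. Ighm, the heavy chain of IgM, was at 6.33, 3.12 and 4.20 FPKM against 2.07, 2.63 and 2.87 FPKM, without overlap.

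The cGAS-STING genes did not differ beyond their spread. Of 18 tested, 13 had a higher mean and 1 (5.56%, against 4.52% of all genes) lay entirely above the PBS tumors. None was at an unadjusted limma p below 0.05, and the median log2 fold change was 0.09. Sting1, the adaptor, was at 9.625, 9.331 and 9.198 FPKM with the framework and at 8.20, 8.42 and 8.93 FPKM with PBS. The groups did not overlap, but the log2 fold change was 0.13, with a 95% interval of -0.15 to 0.40. Cgas, the DNA sensor, was at 8.14, 6.13 and 6.24 FPKM against 5.95, 6.03 and 7.49 FPKM (log2 fold change 0.06, interval -0.27 to 0.40). Tbk1 and Irf3, the kinase and the transcription factor that follow, had log2 fold changes of -0.03 (interval -0.26 to 0.21) and 0.09 (interval -0.12 to 0.29). For all 4 genes the interval excluded a 2-fold difference in either direction. These are RNA levels, and the activity of the proteins was not measured.

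Type I interferon itself was at the limit of detection. Ifnb1 was listed at 0 in all 3 framework tumors, and at 0.0601, 0 and 0.0613 FPKM in the PBS tumors. The response genes were measured well, and 53 of 65 interferon-stimulated genes had a higher mean, with a median log2 fold change of 0.13. That median was 0.04 without framework tumor 3, 0.05 without framework tumor 1 or PBS tumor 2, 0.08 without PBS tumor 3, 0.26 without PBS tumor 1 and 0.29 without framework tumor 2. None of these genes was at an unadjusted limma p below 0.05, and 3 (4.62%) did not overlap, near the 4.52% of all genes. Isg15, a ubiquitin-like protein induced by interferon, was at 26.6, 19.2 and 31.2 FPKM against 44.9, 19.7 and 20.3 FPKM, a log2 fold change of -0.06 (SE 0.49). The first PBS tumor was the highest of the 6 for Isg15 and for Irf7, the interferon-induced transcription factor, at 11.3 FPKM against 4.89 to 9.94 FPKM with the framework.

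Cxcl10 and Cxcl9, chemokines that interferon-gamma induces and that attract T cells, were 2 of those 3 genes. Since Cxcl10 is also counted among the chemokines above, the interferon and chemokine counts are not separate. Cxcl10 was at 170, 196 and 197 FPKM with the framework and at 146, 140 and 140 FPKM with PBS. The PBS tumors had a mean of 142 FPKM with an SD of 3.08 FPKM (n = 3). The log2 fold change was 0.40 with a 95% interval of -0.22 to 1.02 (limma unadjusted p = 0.193), because the fit takes its spread from all 18 tumors, in which the gene ran from 92.3 to 288 FPKM. Cxcl9 was at 10.1, 7.11 and 11.1 FPKM against 4.98, 4.85 and 5.51 FPKM, a log2 fold change of 0.75 (SE 0.62). Ifng, interferon-gamma, was below the expression limit, at 0.426, 0.130 and 0.302 FPKM against 0.0826, 0.191 and 0.316 FPKM.

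The Cxcl10 promoter is shown because the gene is the most abundant of the chemokines tested and a standard readout of interferon signaling. The 250 bases before its start lie at chr5:92348890-92349139 on the minus strand of GRCm38.p6 and are taken from RefSeq, a build other than the GRCm39 of the expression values. Capitals mark the single match to the core of the interferon-stimulated response element, searched as GAAANNGAAA on both strands, which begins 213 bases before the start.
Cxcl10: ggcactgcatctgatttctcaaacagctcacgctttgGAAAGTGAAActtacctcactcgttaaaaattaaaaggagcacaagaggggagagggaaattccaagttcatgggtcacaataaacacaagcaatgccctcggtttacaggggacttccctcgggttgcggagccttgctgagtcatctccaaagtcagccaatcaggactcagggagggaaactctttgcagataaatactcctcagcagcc
Such a match was present in 3.04% of 27025 promoter windows of this length, and a match in letters does not show that a factor binds there.

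MHC class I genes, which present peptides to cytotoxic T cells, had a higher mean for 20 of 21 (median log2 fold change 0.13). None of the 21 was without overlap, beside 6.02% of all genes. MHC class II genes, carried by macrophages, dendritic cells and B cells, had a higher mean for 9 of 9 (median 0.20), and their median ran from 0.11 without PBS tumor 2 to 0.37 without PBS tumor 3. Of the 9 class II genes, 2 (22.2%) lay entirely above the PBS tumors, beside 4.52% of all genes. In Cd74, the class II chaperone, the groups overlapped at 222, 188 and 156 FPKM against 122, 149 and 196 FPKM. Cd274, which encodes PD-L1, the target of the ribozyme that this carrier was made for, was at 14.1, 14.6 and 15.9 FPKM with the framework and at 21.5, 15.7 and 12.3 FPKM with PBS. The framework tumors lay inside the range of the PBS tumors, and the log2 fold change was -0.11 with a 95% interval of -0.83 to 0.61. Among the other checkpoint genes, Havcr2, the inhibitory receptor TIM-3 that myeloid cells also carry, was without overlap at 3.01, 2.04 and 2.51 FPKM against 1.39, 1.65 and 1.59 FPKM (log2 fold change 0.46, limma unadjusted p = 0.0431).

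Genes that handle manganese showed small differences. Of 11 tested transporters and pumps, 10 had a higher mean, as did 58.8% of all genes. Of the 11, 2 (18.2%, against 4.52% of all genes) lay entirely above the PBS tumors. The median log2 fold change was 0.10, and none was at an unadjusted limma p below 0.05. Slc39a14, the importer ZIP14, was at 9.79, 7.59 and 11.3 FPKM against 8.10, 8.65 and 9.93 FPKM, with a log2 fold change of 0.08 (interval -0.22 to 0.38). Slc11a2, the importer DMT1, was at 9.05, 10.2 and 8.46 FPKM against 7.27, 8.55 and 10.5 FPKM, with a log2 fold change of 0.08 (interval -0.27 to 0.42). The groups overlapped for both importers. Slc30a10, the manganese exporter of the cell surface, was listed at 0 in all 18 tumors, and Slc39a8, the importer ZIP8, was at 0.201 FPKM or less in the 6 tumors.

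Slc11a1, a metal exporter of the phagosome that macrophages carry, had the highest log2 fold change of the list. It was at 5.09, 2.80 and 5.37 FPKM with the framework and at 2.47, 2.61 and 2.17 FPKM with PBS. The groups did not overlap, and the log2 fold change was 0.63 (SE 0.36, limma unadjusted p = 0.0990). The other gene without overlap was Tmem165, a Golgi protein that supplies manganese to glycosylation enzymes, at 36.7, 37.7 and 36.3 FPKM against 35.09, 34.02 and 34.09 FPKM (log2 fold change 0.10). Of the manganese-using enzymes 8 of 13 had a higher mean (median log2 fold change 0.04). Sod2, the manganese superoxide dismutase of mitochondria, was at 18.2, 18.4 and 17.8 FPKM against 16.2, 16.5 and 20.3 FPKM, and its log2 fold change of 0.04 had a 95% interval of -0.16 to 0.25.

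The metallothioneins, small cysteine-rich proteins that bind zinc, copper and cadmium and whose genes zinc and other metals induce, did not have a higher mean in the framework tumors. Mt1 was at 156.5, 173.5 and 201.6 FPKM with the framework and at 260.6, 193.4 and 129.6 FPKM with PBS, so that the framework tumors lay inside the range of the PBS tumors. Its log2 fold change was -0.09 with a 95% interval of -0.62 to 0.45. Mt2 was at 217, 227 and 374 FPKM against 415, 343 and 176 FPKM, again with the framework tumors inside the range, and its log2 fold change was -0.15 with a 95% interval of -0.86 to 0.57. Both intervals excluded a 2-fold increase. Mtf1, the metal-sensing transcription factor that drives them, had a log2 fold change of -0.06 (interval -0.27 to 0.16).

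Windows before the RefSeq starts of Mt1 and Mt2 are shown because metal response elements, the sites of that factor, make this pair a usual sensor of free metal. Each sequence is the 250 bases before the RefSeq start on the plus strand of GRCm38.p6, Mt1 at chr8:94178839-94179088 and Mt2 at chr8:94172368-94172617. Capitals mark matches to the core of the element, searched as TGCGCNC or TGCACNC on both strands.
Mt1: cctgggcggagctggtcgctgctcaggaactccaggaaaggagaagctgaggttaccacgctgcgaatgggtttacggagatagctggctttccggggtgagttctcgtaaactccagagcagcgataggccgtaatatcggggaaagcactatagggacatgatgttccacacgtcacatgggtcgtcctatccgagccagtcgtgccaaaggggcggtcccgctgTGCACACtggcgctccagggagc
Mt2: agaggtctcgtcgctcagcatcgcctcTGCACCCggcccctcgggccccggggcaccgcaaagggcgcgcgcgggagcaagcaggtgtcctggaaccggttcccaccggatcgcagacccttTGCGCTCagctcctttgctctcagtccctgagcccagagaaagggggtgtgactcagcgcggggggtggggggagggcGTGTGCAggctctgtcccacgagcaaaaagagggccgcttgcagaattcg
The Mt1 window held 1 match, 23 bases before the RefSeq start. The Mt2 window held 3, at 223, 128 and 50 bases before its start, the last on the opposite strand. Bases after either start were not searched, so any matches there are not counted. Whether the RefSeq starts are those used in these tumors was not tested. The counts thus describe these windows and not the number of elements that either gene has. At least 1 match was present in 21.3% of 27025 promoter windows of this length and at least 3 in 1.28%, so a single match is common, and none of these matches was tested for binding.

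Among the other zinc carriers, Slc39a7, the zinc exporter of the endoplasmic reticulum, was without overlap at 48.5, 49.5 and 46.6 FPKM against 34.5, 45.8 and 44.8 FPKM. Its log2 fold change was 0.21 (SE 0.10, limma unadjusted p = 0.0420), and it was the only gene of this list of 12 at that level. Iron genes had a median log2 fold change of 0.01, with a higher mean for 8 of 15. Tfrc, the transferrin receptor that cells raise when iron is short, was at 55.9, 71.7 and 54.6 FPKM against 66.7, 56.8 and 101 FPKM, a log2 fold change of -0.26 (interval -0.65 to 0.13), or -0.03 without the third PBS tumor. Steap3, an endosomal iron reductase, was at 17.2, 13.1 and 13.8 FPKM against 10.1, 10.8 and 13.3 FPKM, which overlapped (log2 fold change 0.35, limma unadjusted p = 0.0318).

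Oxidative stress genes were near even, with a higher mean for 18 of 27 and a median log2 fold change of 0.05. Hmox1, heme oxygenase, was at 101, 45.3 and 111 FPKM with the framework and at 92.2, 103 and 43.0 FPKM with PBS. Each group held a low tumor and 2 high ones, and the log2 fold change of 0.10 had a 95% interval of -0.92 to 1.13, which does not exclude a 2-fold difference upward. Txnrd1, thioredoxin reductase, was without overlap at 70.6, 69.4 and 76.4 FPKM against 60.8, 63.8 and 63.0 FPKM (log2 fold change 0.20, limma unadjusted p = 0.0430). Gsta4, a glutathione transferase that clears lipid peroxidation products, was lower, at 45.2, 69.7 and 21.1 FPKM against 74.5, 96.2 and 68.8 FPKM. The second framework tumor lay above the lowest PBS tumor, so the groups overlapped, and the log2 fold change was -0.94 (SE 0.41, limma unadjusted p = 0.0375).

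**Figure D4:**
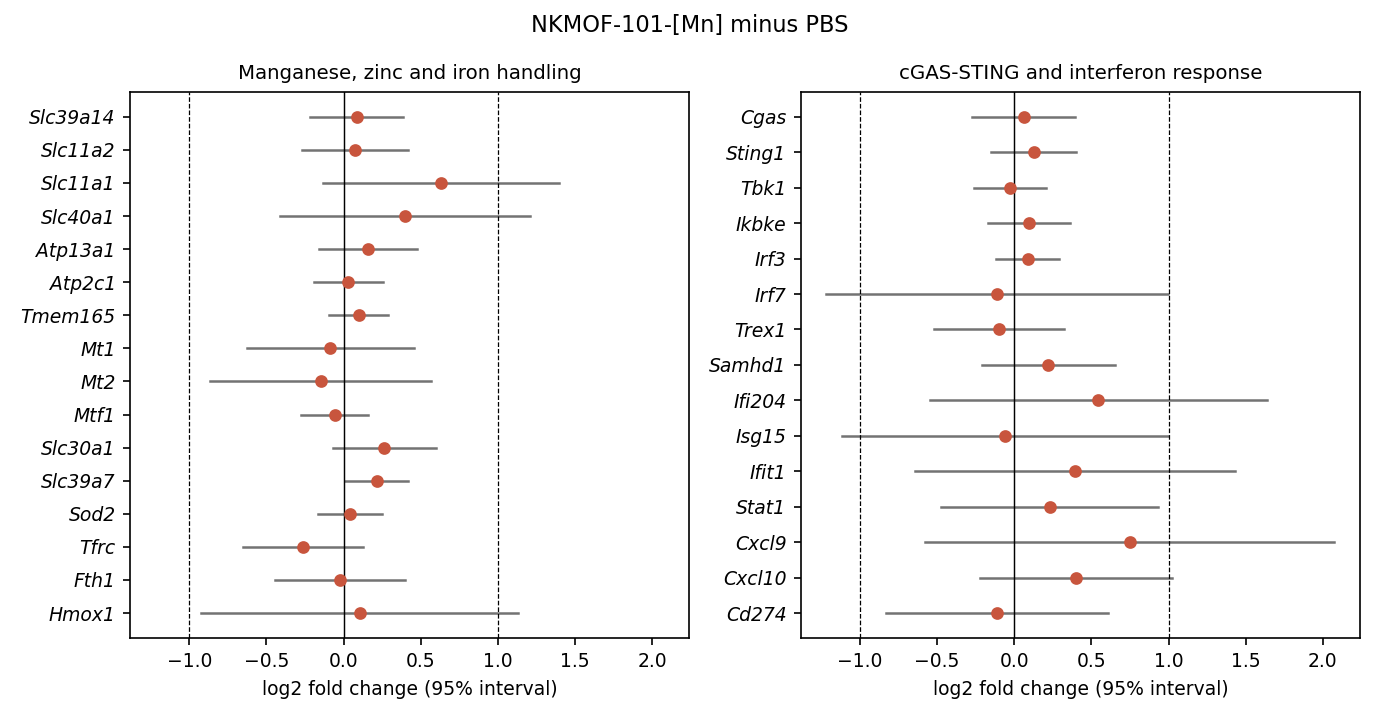
Points are log2 fold changes, NKMOF-101-[Mn] minus PBS, and lines their 95% limma intervals, for genes of metal handling (left) and of the cGAS-STING and interferon response (right), with dashed lines at 2-fold. The intervals of Slc39a14, Slc11a2, Mt1, Mt2, Sod2, Cgas, Sting1, Tbk1 and Irf3 lie between the dashed lines, and Slc39a7 (0.21) is the only gene drawn whose interval lies entirely above 0.

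Genes of the unfolded protein response had a higher mean for 19 of 24 (median log2 fold change 0.17). Creld2, a chaperone of the endoplasmic reticulum, was at 62.9, 53.9 and 46.5 FPKM against 37.73, 35.99 and 49.74 FPKM, which overlapped, with a log2 fold change of 0.40 (limma unadjusted p = 0.0379). Hspa5, the chief chaperone of that compartment, was at 296, 271 and 245 FPKM against 206, 224 and 271 FPKM (log2 fold change 0.22). The p53 targets and apoptosis genes had a median of 0.002, with a higher mean for 10 of 19, and the ferroptosis genes a median of -0.03, with 5 of 11.

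Cell cycle and replication genes had a higher mean for 35 of 39, by little. Their median log2 fold change was 0.10, all 39 intervals lay between -1 and 1, and none was at an unadjusted limma p below 0.05. Plk1, a kinase of mitosis, was without overlap at 70.5, 83.1 and 75.2 FPKM against 54.4, 59.6 and 67.1 FPKM, a log2 fold change of 0.33 (SE 0.16, limma unadjusted p = 0.0575). Melanocyte genes were near even, with a higher mean for 10 of 25 and a median of -0.07. Tyr, tyrosinase, the key enzyme of melanin synthesis, was at 67.2, 86.2 and 52.3 FPKM against 96.4, 60.3 and 88.9 FPKM (log2 fold change -0.25, interval -0.74 to 0.24, or -0.08 without framework tumor 3).

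Hypoxia and glycolysis genes lay mostly on the other side, with a lower mean for 34 of 36 and a median log2 fold change of -0.15. Aldoc, a glycolytic aldolase, was at 22.7, 24.7 and 21.4 FPKM with the framework and at 36.1, 30.5 and 28.0 FPKM with PBS (log2 fold change -0.44, limma unadjusted p = 0.0449). It was the only gene of the list without overlap, while 1.51% of all genes lay entirely below. It was also the only one at an unadjusted limma p below 0.05 (0.316% of all genes were lower there). Bnip3, a hypoxia-induced protein of mitophagy, was at 144, 133 and 197 FPKM against 423, 223 and 127 FPKM, and the third PBS tumor was the lowest of the 6. Without the first PBS tumor the median of the list was -0.07, and without the second framework tumor it was -0.05. The range over the 6 fits that leave out a tumor was -0.32 to -0.05.

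Immediate early genes, which respond within minutes to growth factors, stress and tissue handling, had a lower mean for 21 of 25, with a median log2 fold change of -0.23 that was -0.15 without PBS tumor 2 and -0.38 without PBS tumor 1. Fos was at 60.2, 40.4 and 108 FPKM against 114, 140 and 90.5 FPKM, and Jun at 51.9, 36.7 and 69.0 FPKM against 85.1, 92.9 and 68.7 FPKM. The groups overlapped for both through the third tumor of each group, and their log2 fold changes were -0.81 (SE 0.49) and -0.67 (SE 0.40). Myc was the only gene of the list without overlap (4% of the list, against 4.52% of all genes), in the other direction. It was at 41.8, 44.7 and 44.8 FPKM against 36.5, 39.9 and 38.7 FPKM.

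The lists with the lowest medians were skin epithelium, red blood cells and neutrophils, and their values differed widely between tumors of the same group. The skin epithelium genes had a lower mean for 33 of 34 (median log2 fold change -1.54), with no gene without overlap (6.02% of all genes). The median was -0.49 without framework tumor 2, -0.18 without PBS tumor 2 and -2.94 without PBS tumor 1. Krt14, the keratin of the basal epidermis, was at 375, 0 and 52.7 FPKM with the framework and at 0, 2058 and 666 FPKM with PBS. Each group held a tumor at 0 and tumors with high values, the log2 fold change was -2.03 with a standard error of 3.42, and without the second PBS tumor it was 0.08. The mean level of the list was 4.45, 0.33 and 1.56 with the framework and 0.32, 5.53 and 4.18 with PBS, and ran from 0.28 to 5.48 in the other 12 tumors.

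Of the 6 genes more than 2-fold lower at an unadjusted limma p below 0.05, Sprr2i and Lce3b encode proteins of the cornified envelope of skin. Sprr2i was at 0, 0 and 0.0457 FPKM against 0, 42.1 and 2.40 FPKM, and Lce3b at 0.1745, 0 and 0.3004 FPKM against 0, 14.85 and 1.496 FPKM. Without the second PBS tumor their log2 fold changes of -2.38 and -1.57 became -0.86 and -0.46. Both were highest in that tumor, which was also the highest for the skin list. Cd24a, a surface glycoprotein of epithelial and immune cells, was at 5.07, 0.257 and 1.48 FPKM against 4.84, 34.5 and 9.48 FPKM (log2 fold change -2.28, limma unadjusted p = 0.0445), with the same tumor highest. With the skin level as a covariate the log2 fold changes were -1.85 for Sprr2i, -1.18 for Lce3b and -1.57 for Cd24a.

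The neutrophil list had a median log2 fold change of -1.08 over 5 tested genes, of which 4 had a lower mean. These are 5 of 18 genes on the list, and the median was -0.15 with no expression filter, -0.52 with the skin level as a covariate and -1.80 without PBS tumor 1. S100a8, a calcium-binding protein of neutrophils that stressed epidermis also makes, was at 4.50, 0.344 and 6.03 FPKM with the framework and at 0.382, 252 and 77.9 FPKM with PBS. PBS tumors 2 and 3 were high, and they were the PBS tumors with skin markers. Framework tumor 1 also had skin markers, at a list level of 4.45 beside 4.18 in PBS tumor 3, but had S100a8 at 4.50 FPKM. The source of the difference was not tested. The 8 red blood cell genes all had a lower mean (median -1.10), but the median was 0.006 without the first PBS tumor and -0.44 with no expression filter. Hbb-bs, an adult beta-globin, was at 792, 130 and 862 FPKM against 6668, 447 and 476 FPKM, so the first PBS tumor stood alone and the framework tumors lay on both sides of the other two.

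**Figure D5:**
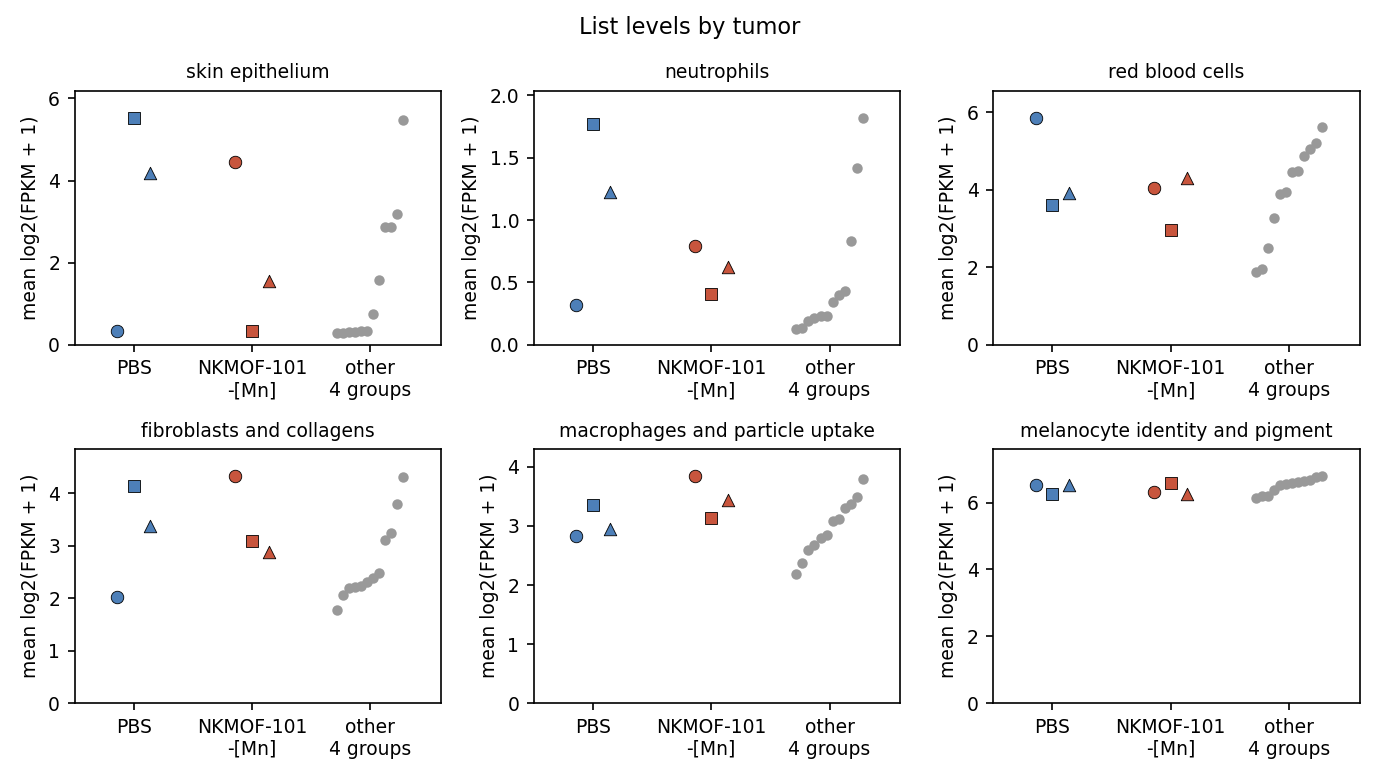
Mean log2(FPKM + 1) of the genes of 6 lists in each PBS tumor (blue) and NKMOF-101-[Mn] tumor (red), with circle, square and triangle for replicates 1, 2 and 3, and in the 12 tumors of the other groups in ascending order (grey). Skin epithelium ran from 0.32 to 5.53 among the PBS tumors and from 0.33 to 4.45 among the framework tumors, and the macrophage list overlapped between the groups at 3.13 to 3.84 against 2.84 to 3.36.

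The list medians were also computed with the skin markers in the fit. With the skin level of each tumor as a covariate in the fit, the median log2 fold change was 0.76 for macrophage genes, 0.78 for chemokines, 0.58 for complement and 0.54 for T and NK cell genes, each larger than without it. The same was seen for fibroblast and collagen genes, from 0.30 to 0.84, and for endothelial genes, from 0.22 to 0.53. With that covariate 0 genes passed adjustment, and 376 were higher and 92 lower at an unadjusted limma p below 0.05.

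Of the 12 genes past 2-fold at an unadjusted limma p below 0.05, 6 are shorter than 300 bases, although only 514 of the 12357 tested genes are. They are the small nucleolar RNAs Snord89 and Snord111, the microRNA genes Mir23a and Mir3074-2, the mitochondrial gene ND4L and Gm24867. A fragment of a gene this short changes its FPKM by a large step, and poly(A) selection does not capture mature small RNAs, so the values describe fragments over the locus. Gm24867, with the smallest unadjusted limma p, 0.00323, was at 2.10, 2.14 and 1.88 FPKM against 0.714, 0.488 and 0 FPKM. Mir23a was at 0.104, 0.191 and 1.91 FPKM against 4.66, 5.32 and 2.92 FPKM, without overlap. ND4L, a subunit of respiratory complex I, was at 35.5, 15.5 and 17.3 FPKM against 8.10, 6.85 and 14.7 FPKM, without overlap, while the 13 mitochondrial genes had a median log2 fold change of 0.03 and 8 with a higher mean.

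The framework tumors were set beside those that received the framework with a ribozyme. Against M5@NKMOF-101-[Mn], limma with Benjamini-Hochberg adjustment called 0 genes in either direction (0%; smallest adjusted p = 1.00), with 379 genes at an unadjusted p below 0.05 (3.07%), of which 272 (2.2%) were higher and 107 (0.866%) lower in the empty framework, 34 (0.275%) and 10 (0.0809%) of them by more than 2-fold. The mean was higher in the empty framework for 59.9% of the genes. Against PS473@NKMOF-101-[Mn] it also called 0 (0%; smallest adjusted p = 1.00), with 284 genes at an unadjusted p below 0.05 (2.3%), of which 222 (1.8%) were higher and 62 (0.502%) lower, 36 (0.291%) and 1 (0.00809%) of them by more than 2-fold. The mean was higher for 61.7% of the genes. These comparisons and that with PBS share the empty framework tumors, so an unusual tumor among those 3 enters each of them. The sample titles of the PS473-loaded tumors name the carrier NKMOF-102-[Mn], while the protocol lists only NKMOF-101-[Mn], and they were taken as the latter.

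Folr2 was at 1.06 to 1.09 FPKM with M5@NKMOF-101-[Mn] and at 0.542 to 1.46 FPKM with PS473@NKMOF-101-[Mn], all below the 3 empty framework tumors, with log2 fold changes of 1.28 (limma unadjusted p = 0.00881) and 1.39 (limma unadjusted p = 0.00513). Mrc1 was at 0.836 to 2.82 and 1.42 to 2.33 FPKM, also below the lowest empty framework tumor. For Cd68, Ccl5, Cxcl10 and Sting1 the empty framework tumors lay within the values of the loaded frameworks. Cd68 was at 23.6 to 47.0 FPKM with M5@NKMOF-101-[Mn] and at 18.5 to 29.5 FPKM with PS473@NKMOF-101-[Mn], with log2 fold changes of 0.13 and 0.74. Ccl5 was at 9.86 to 13.0 and 8.46 to 36.1 FPKM, Cxcl10 at 149 to 189 and 92.3 to 288 FPKM, and Sting1 at 10.5 to 12.0 and 8.64 to 12.94 FPKM. For Sting1 all 3 tumors with M5@NKMOF-101-[Mn] lay above the empty framework tumors, at a log2 fold change, empty framework minus M5@NKMOF-101-[Mn], of -0.25 (limma unadjusted p = 0.0759).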

How the data were processed

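RNA of 18 B16F10 tumors was selected with oligo(dT) from 1.3 µg of total RNA and converted with random hexamers. A stranded kit is not mentioned, so overlapping genes may share fragments. The authors deposited FPKM values per gene, with gene lengths as a second quantity, and the labels give the build GRCm39. The aligner, counter and annotation are not given in the sources used here. Groups were taken from the sample titles. Nothing says that the 3 libraries of a group came from separate mice, so p-values measure the spread between these libraries.

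FPKM was transformed to log2(FPKM + 1), so fold changes of weak genes are understated. Genes averaging under 1 FPKM across the 18 tumors were dropped, and limma 3.58.1 (R 4.3.3) estimated 6 group means for the other 12357, with a variance trend. The p-values were adjusted by Benjamini-Hochberg, and genes were called at an adjusted p below 0.05 and a fold change above 2. Tables and figures used Python 3.11.15, pandas 2.3.3, numpy 2.4.6 and matplotlib 3.10.9. The fit was tested on simulated data. No 2 tumors held identical values. Depth was estimated from the steps between low values, of which 45.0% to 49.2% were whole fragments within 0.02, so count models were not used.

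Named genes were up to 12 per direction past 2-fold without overlap and at least 300 bases long, a set of metal, STING and marker genes, and the members of each list with an unadjusted p below 0.05. Others were chosen as examples after their values were seen. The comparison, the 40 lists and their members were chosen with earlier results of these data known. Promoters came from RefSeq on GRCm38.p6, and 25 of 40 named genes had one. Alternatives were the pseudocount, the filter, 2 normalizations, the 6 tumors alone, no trend, array weights, a skin covariate, a replicate block and leaving out each tumor.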

Additional observations from a re-analysis of the deposited data

How the results depend on the processing

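Genes called at an adjusted p below 0.05 and more than 2-fold numbered 0 under all 16 alternatives for the comparison with PBS, with the smallest adjusted p, 0.0958, when all 31286 genes above 0 were tested, and also 0 under the 9 alternatives run for each of the comparisons with a loaded framework. At an unadjusted limma p below 0.05, the 142 higher and 39 lower genes became 441 and 406 with no filter, 245 and 142 with a filter at a mean of 0.1 FPKM, where more genes were tested, 286 and 145 with array weights, and 376 and 92 with the skin covariate, and the lower genes 59 in the 6 tumors alone. The 6 genes more than 2-fold higher became 12 with a pseudocount of 0.1, 13 with array weights, 32 with the skin covariate and 9 with quantile normalization. The 6 more than 2-fold lower became 10 with a pseudocount of 0.1, 11 with the 0.1 FPKM filter, 13 with quantile normalization, 56 with array weights, 10 with the skin covariate and 9 with no filter. The share of genes with a higher mean, 58.8%, was 44.9% with no filter, where the median log2 fold change was 0. A gene at 0 FPKM in all 6 tumors has no higher mean, and such genes were not counted apart. The cause of these shifts was not tested, and the array weights did not converge, giving the first Free PS473 tumor a weight of 17.1. Leaving out a tumor gave 69 to 304 higher and 33 to 153 lower genes, 6 to 20 more than 2-fold higher and 2 to 94 more than 2-fold lower, where 69 was without framework tumor 1, 20 without framework tumor 2, 304 without PBS tumor 3, and 153 and 94 without PBS tumor 1.

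With array weights, the log2 fold changes turned in sign for Mt1 (0.170), Mt2 (0.162), Slc11a2 (-0.058), Sod2 (-0.045), Tbk1 (0.019), Irf7 (0.136), Isg15 (0.220) and Cd274 (0.085), with the skin covariate for Irf7 (0.033) and Krt14 (0.615), and with quantile normalization for Pmel (0.065). Over the fits that leave out 1 tumor, they ran from -0.348 to 0.154 for Mt1, -0.512 to 0.103 for Mt2, -0.035 to 0.226 for Slc39a14, -0.039 to 0.200 for Slc11a2, -0.283 to 0.505 for Hmox1, -0.011 to 0.142 for Sod2, -0.054 to 0.156 for Cgas, -0.067 to 0.010 for Tbk1, -0.321 to 0.131 for Irf7, -0.256 to 0.319 for Isg15, -0.292 to 0.087 for Cd274, -0.139 to 0.064 for Pmel and -5.428 to 0.354 for Krt14. The replicate block gave 107 higher and 38 lower genes at an unadjusted p below 0.05. Deviations of tumors with the same replicate number correlated at -0.73, -0.68 and -0.29, and those with unlike numbers at -0.26 to 0.67. Since the deviations are taken within groups of 3, they cannot decide whether the numbers pair tumors. The numbers are not said to do so. Among single genes, Folr2, Ccl5, C1qa, Lyz2, Ccl8, Cd68, Ptprc, Sting1 and Cxcl10 kept their direction in all 16 alternatives. Ccl5 lay between 0.98 and 1.59 and Folr2 between 0.66 and 1.63. None of these genes overlapped between the groups, so leaving out or weighting tumors, or changing the pseudocount, could not turn their direction. The filters, no trend, the replicate block and the fit to the compared tumors alone left their estimates unchanged. Only the normalizations and the skin covariate could have turned the direction of these genes, and they did not. The median of the macrophage list was 0.42 to 0.81 and that of the skin list -2.94 to -0.15. With 3 tumors a group and 17770000 to 22230000 fragments each, genes below 1 FPKM were not tested.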
